A study of Mus musculus with 2 samples.

Results

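The Fc receptors and the DAP12-linked receptors of the omentum were followed as a set of 9 genes, chosen by name: the activating IgG receptor chains Fcgr1, Fcgr3 and Fcgr4, the inhibitory IgG receptor Fcgr2b, the neonatal Fc receptor Fcgrt, the signalling adaptors Fcer1g and Tyrobp (DAP12), and the TREM receptors Trem1 and Trem2. The choice was made with earlier results of these data known. All 9 were among the 24346 genes listed in both libraries. All 9 were also among the 13127 genes whose FPKM averaged 1 or more over the libraries, which were the genes compared. FPKM is a length-corrected level: sequenced fragments of a gene relative to its transcript length and to a library total. The processing may have rescaled that total between libraries. Trem1 passed that minimum only through its level in the Postn-DTR library.

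RNA-seq was performed on whole omentum, the fat-rich abdominal tissue that carries lymphoid clusters called milky spots, to ask which transcripts depend on the Aldh1a2+ fibroblastic reticular cells (FRCs) of these clusters. The WT library and the Postn-DTR library both came from mice given diphtheria toxin (DT), and tissue was taken 5 days later. Postn-DTR mice were heterozygous for a DT receptor cassette knocked into the start of the Postn coding sequence, on the C57BL/6 background, so the toxin ablates cells in which the Postn promoter is active. WT mice lacked the cassette and received the same toxin, with littermates used when feasible. Ablation in this model was not restricted to the omental Aldh1a2+ cells: a second omental stromal subset was partly lost, the Postn promoter is active in mesenchymal cells of other tissues, and some mice had an enlarged cecum. Each genotype had 1 library, and the number of mice behind a library was not stated.

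IgG Fc receptors bind the constant part of IgG and couple antibody-coated targets to phagocytosis, cytokine release and degranulation. The activating receptors lack a signalling motif of their own and depend on the Fc receptor gamma chain encoded by Fcer1g, whereas FcγRIIB, the product of Fcgr2b, carries an inhibitory motif in its own tail and is the IgG receptor of B cells. DAP12, encoded by Tyrobp, plays the same adaptor role for TREM1, an amplifier of inflammation on neutrophils and monocytes, and for TREM2, a lipid and apolipoprotein sensor of tissue macrophages. Serous tissues such as the omentum hold resident macrophages, mast cells and B cells, all of which use some of these chains.

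The motifs that divide this labour are written in the coding sequence, so the stretches that carry the signalling motifs are printed. Sequences and positions were taken from GENCODE M21 on GRCm38, coding strand, 5′ to 3′. In the immunoreceptor tyrosine-based activation motif (ITAM) of the adaptors, capitals mark the codons for tyrosine and for the leucine that follows it in each arm of the motif. In the inhibitory motif (ITIM) of Fcgr2b, capitals mark the codons of the motif.
Fcer1g ITAM, codons 65 to 79: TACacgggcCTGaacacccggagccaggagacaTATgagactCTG
Tyrobp ITAM, codons 92 to 106: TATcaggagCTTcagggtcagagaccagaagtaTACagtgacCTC
Fcgr2b ITIM, codons 313 to 326: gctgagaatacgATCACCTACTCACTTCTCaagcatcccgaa
The Fcer1g stretch is exonic, spans 2 of the 5 exons of its transcript and covers chr1:171229889-171230072 with the intron between them (minus strand). The Tyrobp stretch likewise spans 2 of 5 exons, over chr7:30415670-30417382 (plus strand), and the Fcgr2b stretch lies in 1 of 8 exons at chr1:170961059-170961100 (minus strand). The translated coding sequences of the 9 members were searched after their most hydrophobic window for an ITAM, taken as tyrosine, any 2 residues and leucine or isoleucine, repeated after 6 to 12 residues. It was found in Fcer1g (1) and Tyrobp (1) and in 0 of the other 7 members. The looser ITIM pattern occurred once each in Fcgr2b and Tyrobp. This pattern can overlap an arm of an ITAM, so the Tyrobp match was not read as a separate inhibitory motif.

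The TREM receptors and DAP12 assemble through residues of opposite charge inside the membrane. The most hydrophobic window of 21 codons was therefore read from each, and capitals mark the codon of the charged residue within it, aspartate in Tyrobp and lysine in Trem1 and Trem2.
Tyrobp, codons 43 to 63: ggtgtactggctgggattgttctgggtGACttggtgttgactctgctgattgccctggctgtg
Trem1, codons 203 to 223: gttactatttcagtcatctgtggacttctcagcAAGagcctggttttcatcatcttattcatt
Trem2, codons 172 to 192: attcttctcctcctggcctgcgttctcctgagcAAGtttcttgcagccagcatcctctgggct
These stretches lie within single coding exons, at chr7:30414542-30414604, chr17:48244562-48244624 and chr17:48351777-48351839, all on the plus strand. After the window, 7 codons remained in Trem1 and 35 in Trem2, against 51 in Tyrobp and 42 in Fcer1g.

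In the Postn-DTR omentum, 6 of the 9 members had at least 2-fold higher values than in WT on the log2(FPKM + 1) scale: Trem1, Fcgr4, Trem2, Fcgr3, Tyrobp and Fcer1g. None was at least 2-fold lower. Over all genes compared, 509 (3.88%) were at least 2-fold higher and 410 (3.12%) at least 2-fold lower. The median change of the members, Postn-DTR minus WT, was 1.25 on that scale, against 0.02 for all genes compared. Because the members were chosen with earlier results of these data known, the contrast with all genes is descriptive only. At 1.5-fold, 8 members were higher against 9.86% of all genes, and at 3-fold 3 members were higher against 1.52% of all genes. Without Trem1, which passed the expression minimum through one library, 5 of 8 members were at least 2-fold higher and their median change was 1.15. Each genotype had a single library, so the spread between mice is unknown, no test was made and none of these differences has a replicate check. In whole tissue, more cells of a type and more RNA per cell cannot be told apart.

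**Figure D1:**
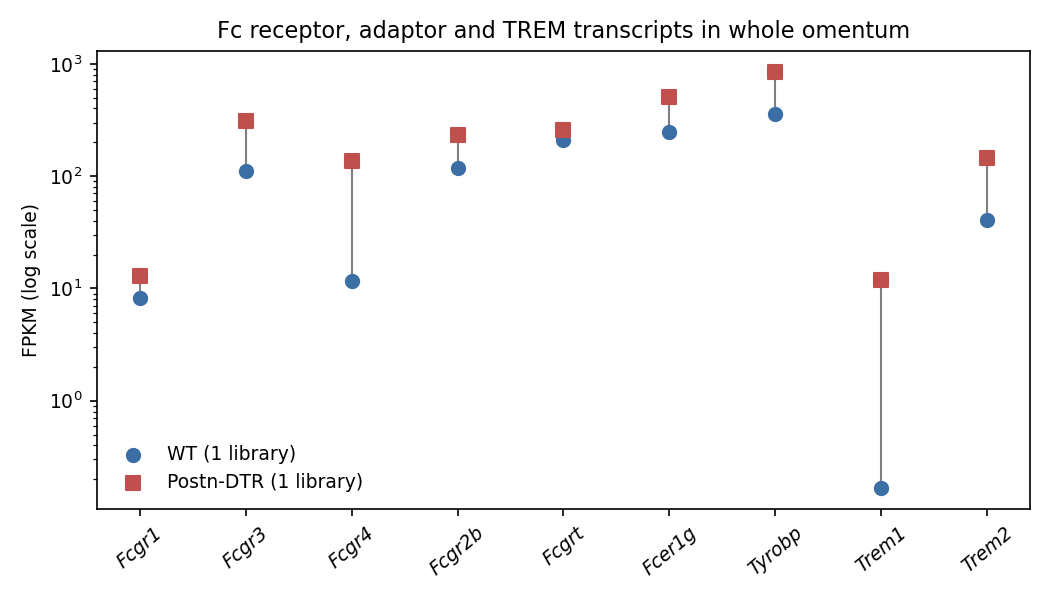
FPKM of each member in the WT library (circles) and the Postn-DTR library (squares) on a log scale, with 1 library per genotype and no error bars. Every square lies above its circle, by 1.24-fold for Fcgrt and 70.8-fold for Trem1.

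The FPKM totals of the libraries differed, and this bears on the size of every change. The listed FPKM added up to 542190 for WT and 671882 for Postn-DTR, and pancreatic acinar genes made up 2.41% of the WT sum and 0.00308% of the Postn-DTR sum. Postn, the targeted gene, was listed at 58.3 FPKM in WT against 16.2 FPKM in Postn-DTR, which is 3.61-fold lower. When the totals were made equal after removal of the acinar genes, the median change of all genes moved to -0.29. All-gene calls shifted to 305 higher (2.32%) and 819 lower (6.22%), and the median change of the members was 0.91. Under that scaling 4 members stayed past 2-fold (Trem1, Fcgr4, Trem2 and Fcgr3). Adipocyte markers (5 of 5 compared, 0 past 2-fold, summed FPKM 6691 in WT and 7956 in Postn-DTR), mesothelial markers (363.5 and 342.1) and B cell markers (471.0 and 342.2) were detected in both libraries.

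Among the activating IgG receptors, Fcgr4 differed most. Fcgr4 (ENSMUSG00000059089, chr1:171018920-171029761, plus strand) encodes FcγRIV, a receptor for IgG2a and IgG2b on monocytes, macrophages and neutrophils. It was listed at 11.8 FPKM in WT against 135.7 FPKM in Postn-DTR. The ratio was 11.5, with a 95% counting interval of 10.2 to 13.1 from an estimated 289 and 3447 reads. Its change of 3.42 placed it at rank 28 of the 13127 genes compared, counted from the most higher gene. By level, it moved from rank 6477 of all listed genes in WT to rank 662 in Postn-DTR.

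Fcgr3 (ENSMUSG00000059498, chr1:171051174-171064935, minus strand) encodes FcγRIII, the low-affinity activating receptor of macrophages, neutrophils, mast cells and NK cells. Its FPKM was 111.1 in WT against 310.9 in Postn-DTR, a ratio of 2.80 and a change of 1.48 (rank 235). Fcgr1 (ENSMUSG00000015947, chr3:96282909-96293969, minus strand) encodes the high-affinity receptor FcγRI. It had 8.22 FPKM in WT against 12.9 FPKM in Postn-DTR, a ratio of 1.58 with a counting interval of 1.40 to 1.78. Fcgr1 therefore stood under the 2-fold line, with a change of 0.60, while the other activating chains passed it.

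The inhibitory receptor Fcgr2b (ENSMUSG00000026656, chr1:170958617-170976547, minus strand) was listed at 117.0 FPKM in WT against 231.7 FPKM in Postn-DTR. The ratio was 1.98 and the change 0.98, the member nearest to the 2-fold line from below, at rank 536. Fcgr2b and Fcgr3 share near-identical coding sequence, so their separate values are uncertain where reads could not be assigned to one of them. Their coding sequences were 84.5% identical over 783 aligned bases. Of all 50-base stretches of the coding sequence, 22.0% of those of Fcgr3 and 17.0% of those of Fcgr2b occurred in the other gene, and 0 of those of each of the other 7 members occurred in another member. The longest run without a difference, 129 bases (bases 278 to 406 of the Fcgr2b coding sequence and 263 to 391 of that of Fcgr3), is printed because a read within it cannot tell the genes apart.
Run shared by Fcgr2b and Fcgr3: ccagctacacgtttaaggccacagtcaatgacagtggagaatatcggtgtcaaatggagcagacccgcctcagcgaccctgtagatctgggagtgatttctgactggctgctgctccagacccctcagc
Fcgr4 shared no run longer than 14 bases with Fcgr3 or 13 bases with Fcgr2b, so this limit does not touch it.

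The make-up of the IgG receptor pool differed between the libraries. The summed FPKM of Fcgr1, Fcgr2b, Fcgr3 and Fcgr4 was 248.1 in WT and 691.2 in Postn-DTR, a ratio of 2.79. Fcgr4 took 4.74% of that sum in WT and 19.6% in Postn-DTR. Fcgr2b took 47.2% in WT and 33.5% in Postn-DTR. Fcgr3 held a like share in both libraries, 44.8% and 45.0%, and Fcgr1 took 3.31% and 1.87%. Set against Fcgr2b within the same library, a ratio that the scaling between libraries cannot move, the summed activating chains stood at 1.12 in WT and 1.98 in Postn-DTR. The ratio of Fcgr4 to Fcgr3 was 0.106 in WT and 0.436 in Postn-DTR, and that of Fcgr3 to Fcgr2b was 0.949 and 1.34. The uncertain assignment of reads between Fcgr2b and Fcgr3 applies to these shares and ratios too. Levels across genes also depend on the transcript length used, and coding transcripts of Fcgr2b ran from 1084 to 3544 bases.

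**Figure D2:**
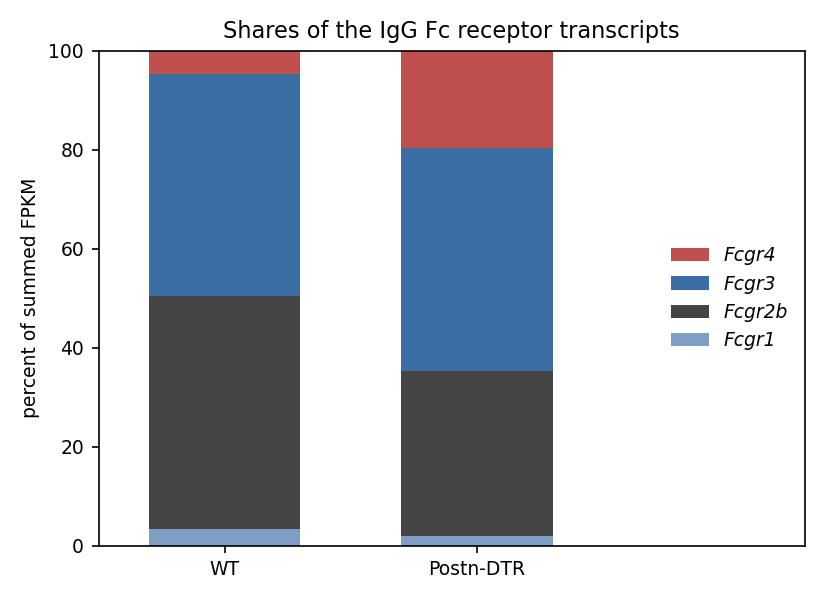
Shares of the summed FPKM of Fcgr1, Fcgr2b, Fcgr3 and Fcgr4 in each library, in percent, with 1 library per bar. The Fcgr4 segment is 4.74% of the WT bar and 19.6% of the Postn-DTR bar, and the Fcgr2b segment is 47.2% and 33.5%. Assignment of reads between Fcgr2b and Fcgr3 is uncertain.

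Fcgrt stood apart from the other Fc receptors. It encodes the heavy chain of FcRn, the neonatal Fc receptor, which pairs with beta-2 microglobulin and returns IgG and albumin from endosomes to the circulation. Fcgrt (ENSMUSG00000003420, chr7:45092990-45103851, minus strand) had 208.6 FPKM in WT against 259.0 FPKM in Postn-DTR, a ratio of 1.24. Its change of 0.31 (rank 2950) was the smallest of the 9 and turned to -0.03 with equal totals. Its partner B2m had 3177 and 3725 FPKM (change 0.23, and -0.12 with equal totals). The ratio of B2m to Fcgrt was 15.2 in WT and 14.4 in Postn-DTR.

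The adaptors were the most abundant members in both libraries. Tyrobp (ENSMUSG00000030579, chr7:30413760-30417585, plus strand) had 356.8 FPKM in WT against 852.6 FPKM in Postn-DTR, a ratio of 2.39 and a change of 1.25 (rank 321). Fcer1g (ENSMUSG00000058715, chr1:171229572-171234365, minus strand) had 244.5 FPKM in WT against 507.4 FPKM in Postn-DTR, a ratio of 2.07 and a change of 1.05 (rank 463). Fcer1g was the member just inside the 2-fold line, and with equal totals Fcer1g (0.71) and Tyrobp (0.91) both came under it. Receptors and adaptors did not keep the same proportion: the activating IgG receptor chains stood at 0.536 of the Fcer1g level in WT and 0.906 in Postn-DTR, and the TREM receptors at 0.114 and 0.185 of the Tyrobp level. The ratio of Tyrobp to Fcer1g was 1.46 in WT and 1.68 in Postn-DTR.

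The genes whose pair of levels lay nearest to an adaptor were found by the distance between their log2(FPKM + 1) values over the 2 libraries. For Tyrobp these were Grn (310.2 and 743.6 FPKM in WT and Postn-DTR), Ucp2 (370.0 and 687.9 FPKM) and Ctss (312.7 and 715.7 FPKM), at distances of 0.28, 0.31 and 0.32. For Fcer1g they were S100a4 (231.4 and 448.9 FPKM), Cyba (260.8 and 440.2 FPKM) and Cd63 (281.3 and 471.4 FPKM), at 0.19, 0.22 and 0.23. Grn encodes progranulin, Ctss the lysosomal protease cathepsin S, Cyba a subunit of the phagocyte NADPH oxidase and Cd63 a tetraspanin of late endosomes. With 2 points per gene, this nearness describes level and change only.

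Trem1 and Trem2 were both past 2-fold, at very different levels. Trem1 (ENSMUSG00000042265, chr17:48232768-48246924, plus strand) was listed at 0.167 FPKM in WT against 11.8 FPKM in Postn-DTR. The ratio was 70.8, but the WT value rests on an estimated 7 reads, and the counting interval ran from 35.6 to 184.6. Its change was 3.46 (rank 26), and it was 1.70 when 5 was added to each FPKM and 5.48 when 0.1 was added. Trem1 had the largest change of the set as reported, but with 5 added it came after Fcgr4 (3.07) and Trem2 (1.73). Trem1 was thus near the lower limit of detection in WT, where 3 reads on a 2 kb transcript correspond to 0.0716 FPKM, and its fold is less certain than its direction in these libraries.

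Trem2 (ENSMUSG00000023992, chr17:48346401-48354147, plus strand) was detected well in both libraries, at 40.5 FPKM in WT against 145.6 FPKM in Postn-DTR. The ratio was 3.60, with a counting interval of 3.33 to 3.90, and the change was 1.82 (rank 150). Trem2 remained the more abundant TREM transcript: the ratio of Trem2 to Trem1 was 241.9 in WT and 12.3 in Postn-DTR. The order of levels in Postn-DTR ran from Tyrobp through Fcer1g, Fcgr3, Fcgrt, Fcgr2b, Trem2, Fcgr4 and Fcgr1 to Trem1. It differed from WT in the place of Fcgr3, which lay below Fcgrt and Fcgr2b in WT and above both in Postn-DTR. Neighbours such as Trem2 and Fcgr4 (145.6 and 135.7 FPKM) could not be compared against a spread between libraries.

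**Figure D3:**
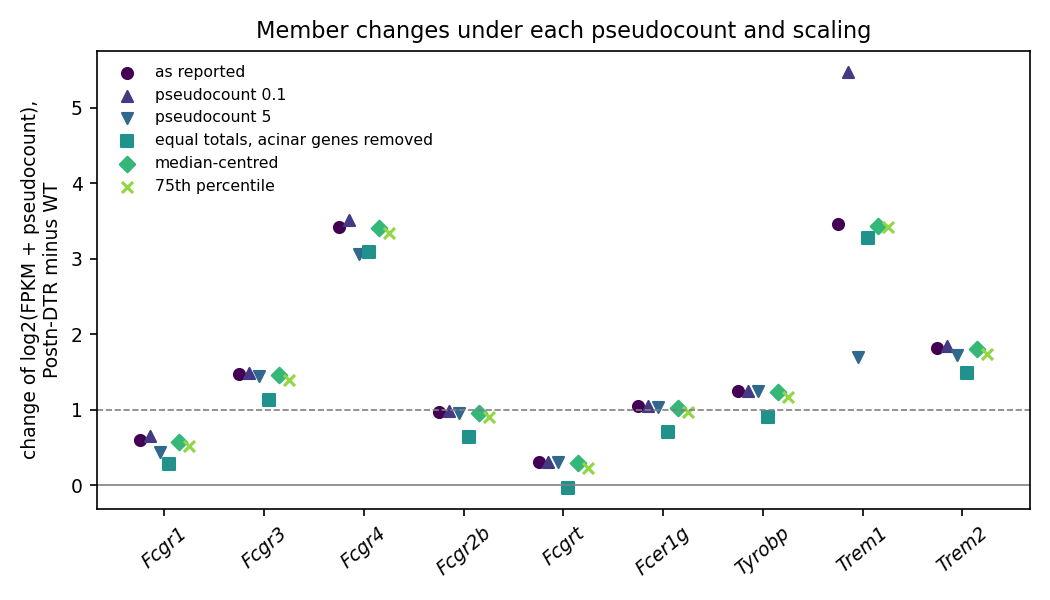
Change of each member, Postn-DTR minus WT, as reported (circles) and under each other pseudocount and scaling, with a dashed line at 2-fold (1 library per genotype). Fcgrt falls to -0.03 with equal totals, Fcer1g and Tyrobp fall under the dashed line there, and Trem1 spans 1.70 to 5.48.

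Fcgr2b, Fcgr4, Fcgr3 and Fcer1g lie in that order within 276 kb of chromosome 1, and Trem1 and Trem2 lie within 121 kb of chromosome 17. Between Fcgr2b and Fcer1g, 4 of the 8 other listed genes passed the expression minimum, and 0 of them passed 2-fold on the log2(FPKM + 1) scale. They were chosen by position alone and had changes of 0.17 (Cfap126), -0.03 (Sdhc), -0.97 (Pcp4l1) and -0.41 (Tomm40l). Pcp4l1, with 15.6 and 7.49 FPKM, stood just under the line and passed it with equal totals (-1.28), where Cfap126 also turned direction (-0.10). Between Trem1 and Trem2, all 4 other genes were compared, and they did not move together. B430306N03Rik had 3.01 FPKM in WT against 8.31 FPKM in Postn-DTR (change 1.21), and Treml4, a TREM-like receptor, had 4.24 and 1.10 FPKM (change -1.32). Trem3, with 0.761 and 2.06 FPKM, and Treml2, with 2.58 and 2.03 FPKM, stayed under 2-fold on the log2(FPKM + 1) scale (changes 0.80 and -0.24), although the FPKM ratio of Trem3 was 2.71. With equal totals B430306N03Rik came under 2-fold (0.93).

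**Figure D4:**
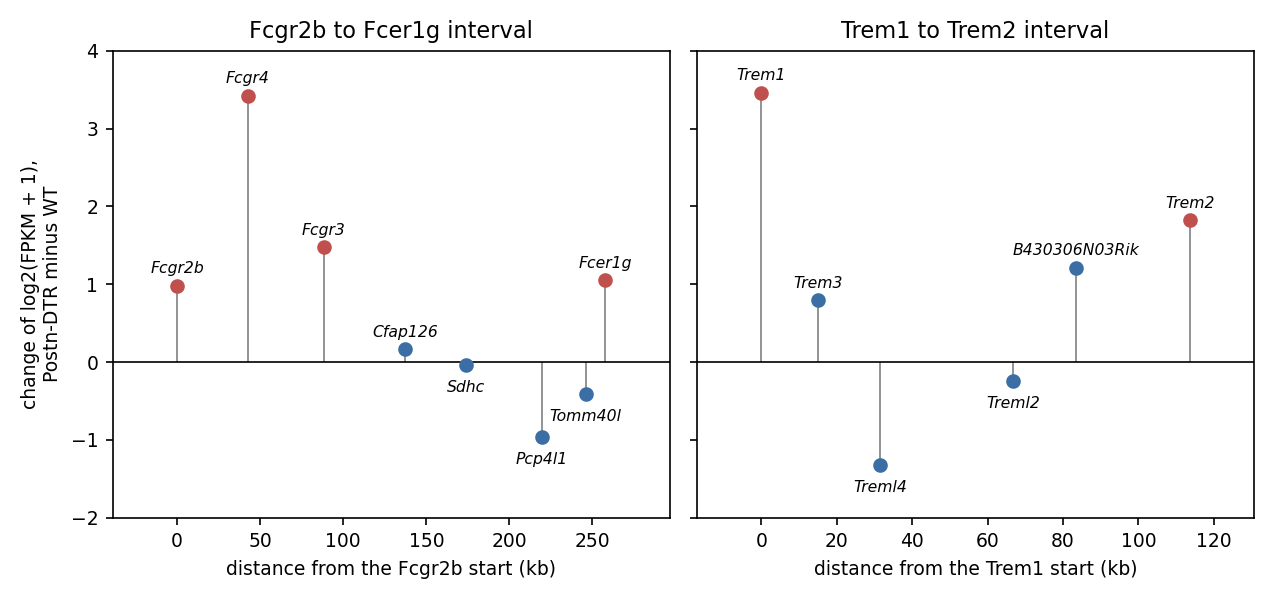
Difference of log2(FPKM + 1) between Postn-DTR and WT (Postn-DTR minus WT) against distance in kb from the start of Fcgr2b or of Trem1, for the genes compared in each interval (red, members; blue, other genes; 1 library per genotype). The members lie at 0.98 or above, and the other genes lie between -1.32 and 1.21.

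The promoters of the 3 members with the largest changes are shown, with the core that the myeloid factor PU.1 recognises in capitals. These are the 250 bases before the start of the RefSeq gene on GRCm38.p6, read 5′ to 3′ on the gene's strand, and chosen for the size of the change.
Trem1, chr17:48232489-48232738 (+): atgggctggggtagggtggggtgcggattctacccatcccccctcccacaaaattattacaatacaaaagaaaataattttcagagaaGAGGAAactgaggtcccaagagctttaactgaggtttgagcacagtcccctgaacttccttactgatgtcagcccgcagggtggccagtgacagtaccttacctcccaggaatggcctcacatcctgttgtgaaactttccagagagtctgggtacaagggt
Fcgr4, chr1:171018676-171018925 (+): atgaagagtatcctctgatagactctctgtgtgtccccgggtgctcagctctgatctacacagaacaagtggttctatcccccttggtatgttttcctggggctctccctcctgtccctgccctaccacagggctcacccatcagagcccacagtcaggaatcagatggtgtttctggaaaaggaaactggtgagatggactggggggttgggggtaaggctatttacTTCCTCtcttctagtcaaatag
Trem2, chr17:48346151-48346400 (+): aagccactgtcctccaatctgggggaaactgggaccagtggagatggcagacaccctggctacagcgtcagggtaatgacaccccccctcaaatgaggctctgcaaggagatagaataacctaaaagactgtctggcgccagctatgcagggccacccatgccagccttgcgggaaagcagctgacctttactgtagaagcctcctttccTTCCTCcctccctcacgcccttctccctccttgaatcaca
The core was searched as GAGGAA or its reverse complement TTCCTC, and its first base lay 162 bases before the start in Trem1, 22 in Fcgr4 and 40 in Trem2. It occurred in 5 of the 8 member promoters in the table (also Fcgr1 and Fcgr3) and in 23.1% of all 27025 promoters of the same length. The C/EBP pattern TTNNGCAA, searched with its reverse complement TTGCNNAA, occurred in 2 of 8 (Fcgr3 and Fcgrt) and in 9.55% of all promoters. The STAT pattern TTCNNNGAA, which is its own reverse complement, occurred in 2 of 8 (Fcgr1 and Trem1) and in 7.18% of all. A match describes letters in a window and is not evidence that the factor was bound.

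Genes of the signalling machinery below the receptors were past 2-fold about as seldom as genes in general. Of 20 genes for ITAM signalling, such as the Src-family and Syk kinases and their substrates, all were compared. Of these, 1 was at least 2-fold higher (against 3.88% of all genes) and 0 lower. Of their 20 changes, 15 were above 0 as reported, against 51.9% of all genes compared. The median change of the list was 0.22, and -0.12 with equal totals. The higher gene was Fgr, a myeloid Src-family kinase, with 12.4 FPKM in WT against 28.6 FPKM in Postn-DTR, which came under 2-fold with equal totals (0.82). Card9, an adaptor below Syk named after its values were seen, had 9.04 and 18.9 FPKM and a change of 0.99, just under the line. The most abundant of the list, Rac2 and Prkcd, had 78.9 and 92.1 FPKM and 58.3 and 61.0 FPKM, and both changes turned below 0 with equal totals (-0.12 and -0.27). Syk, the kinase that docks on a phosphorylated ITAM, had 46.5 and 48.6 FPKM and was named after its values were seen. The ratio of Tyrobp to Syk was accordingly 7.67 in WT and 17.5 in Postn-DTR, and that of Fcer1g to Syk 5.26 and 10.4. In whole tissue, a rise in some cells and a fall in others can cancel in such values, and this was not tested.

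Other receptors that use the same adaptors were mixed. Of 18 compared, 2 were at least 2-fold higher, 2 lower, and the median change was 0.15 (-0.08 with equal totals). The higher ones were the C-type lectins Clec4e (Mincle, which signals through the Fc receptor gamma chain), with 2.0 and 12.1 FPKM, and Clec4d, with 13.5 and 64.5 FPKM. The lower ones were Treml4, described with its neighbours, and Sirpb1a, with 3.17 and 0.926 FPKM, which passed the expression minimum through WT alone. Among 16 inhibitory receptors and phosphatases, 3 were at least 2-fold higher and 1 lower (median 0.28, and -0.05 with equal totals). Lilrb4a had 23.7 and 64.7 FPKM, Pirb 43.3 and 91.3 FPKM and Cd300lf 4.14 and 24.9 FPKM, while Cd72, an inhibitory co-receptor of B cells, had 25.3 and 10.3 FPKM. With equal totals Pirb came under 2-fold (0.72). Cd22, named after its values were seen, had 34.8 and 17.0 FPKM and passed 2-fold downwards there (-1.32). That left 2 higher and 2 lower of the 16.

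A list of other Fc receptors and partner chains, which included B2m and the cytosolic antibody receptor Trim21, held calls in both directions. Of 9 compared, 1 was at least 2-fold higher and 4 lower, with a median change of -0.41. The higher one was Fcer1a, the IgE-binding chain of the high-affinity IgE receptor, which also signals through Fcer1g. It had 1.15 FPKM in WT against 15.6 FPKM in Postn-DTR (ratio 13.6, counting interval 8.56 to 23.0). The lower ones were Fcer2a, the low-affinity IgE receptor of B cells (30.5 and 3.10 FPKM), Fcmr, the IgM receptor (54.4 and 21.4 FPKM), Fcrl1 (13.2 and 4.20 FPKM) and Fcrls (26.0 and 12.4 FPKM).

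Apoe, an apolipoprotein that TREM2 binds, was the only one of 6 TREM ligands and sheddases past 2-fold. It had 3922 FPKM in WT against 9479 FPKM in Postn-DTR. The median change of that list was 0.32, and -0.03 with equal totals. Of 14 genes that accompany TREM2 in lipid-associated macrophages, 5 were at least 2-fold higher and 1 lower, with a median change of 0.75. Spp1, which encodes osteopontin, had 1.02 and 78.3 FPKM, Gpnmb 5.60 and 44.2 FPKM, and Lgals3, which encodes galectin-3, 77.9 and 221.3 FPKM. Plin2, a lipid droplet coat protein, had 166.6 and 390.1 FPKM, and the protease Ctsl 284.9 and 611.5 FPKM. The lower gene was Fabp5, a fatty acid carrier, with 199.6 and 86.3 FPKM. With equal totals the changes of Apoe (0.93), Plin2 (0.88) and Ctsl (0.76) came under 2-fold. Lpl, named after its values were seen, had 438.6 and 235.6 FPKM and passed 2-fold downwards there (-0.89 as reported, -1.24 with equal totals). The genes accompanying TREM2 were then 3 higher and 2 lower of 14. The IgG heavy chain genes, whose products are the ligands of the IgG receptors, were not analysed here.

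Among markers of cells that can carry these receptors, those of mast cells were the most often higher. Those of macrophages were higher or under 2-fold, those of neutrophils and monocytes were mixed, and those of B and NK cells were not higher. Of 13 macrophage markers, 5 were at least 2-fold higher and 0 lower, with a median change of 0.98 and a summed FPKM of 4986 for WT and 8857 for Postn-DTR. Among the higher ones Itgam had 46.8 and 251.9 FPKM, Cd14 33.6 and 230.1 FPKM and Adgre1 41.1 and 137.6 FPKM. The most abundant, Lyz2 (2459 and 3563 FPKM) and C1qb (771.8 and 1536 FPKM), stayed under 2-fold, with changes of 0.54 and 0.99. With equal totals Cd163 came under 2-fold (0.88). Higher calls were then 4 of 13 for macrophage, 2 of 6 for monocyte, 2 of 9 for neutrophil and 4 of 7 for mast cell markers. The changes of 7 of the 9 members exceeded the macrophage median of 0.98, Fcgr2b only just, and those of Fcgr1 and Fcgrt did not. With equal totals Fcgr2b (0.637) lay just below the macrophage median (0.648). Of 6 monocyte markers, 2 were higher (Chil3, 12.1 and 170.0 FPKM; Ly6c2, 50.9 and 150.3 FPKM) and 1 lower (Ccr2, 39.6 and 16.4 FPKM), and the summed FPKM was 381.0 and 696.4. Of 9 neutrophil markers, 3 were higher (Retnlg, Cxcr2 and Csf3r) and 3 lower (the granule genes Ngp, Camp and Ltf), with summed FPKM of 467.1 and 727.5. Csf3r came under 2-fold with equal totals (0.79), and Cxcr2 (0.514 and 4.03 FPKM) passed the expression minimum through the Postn-DTR library alone. Of 7 mast cell markers, 5 were higher, among them Cpa3 (10.7 and 52.5 FPKM) and Cma1 (16.5 and 84.8 FPKM), with summed FPKM of 94.7 and 334.8. Of these, Hdc came under 2-fold with equal totals (0.77), and Tpsab1 (0.193 and 2.75 FPKM) passed the minimum through Postn-DTR alone.

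Fewer genes of the remaining lists were higher. Of 6 B cell markers, 0 were higher and 1 lower (Ms4a1, 56.8 and 23.6 FPKM), and the median change was -0.59. Of 5 NK cell markers compared, 0 were higher and 1 lower. The summed FPKM of all 6 NK cell markers listed, compared or not, was 46.7 in WT and 32.3 in Postn-DTR. Of 7 dendritic cell markers, 5 were lower and 1 higher (Clec10a, 71.1 and 148.2 FPKM, under 2-fold with equal totals at 0.71). Of 6 T cell markers, 4 were lower and 0 higher. Among the lower ones, Xcr1 (2.77 and 0.517 FPKM) and Cd8a (2.81 and 0.897 FPKM) passed the expression minimum through WT alone. Of 5 endothelial markers 0 passed 2-fold, and of 4 mesothelial markers 1 was lower (Lrrn4, 62.7 and 29.2 FPKM). With equal totals the lower calls were 2 of 6 for B cell, 6 of 6 for T cell and 1 of 5 each for endothelial and adipocyte markers. None of the macrophage, monocyte, neutrophil, mast, B or NK cell markers compared was at 0 in either library. The part of these cell type markers in the changes of the Fc receptors, adaptors and TREM receptors was not tested.

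**Figure D5:**
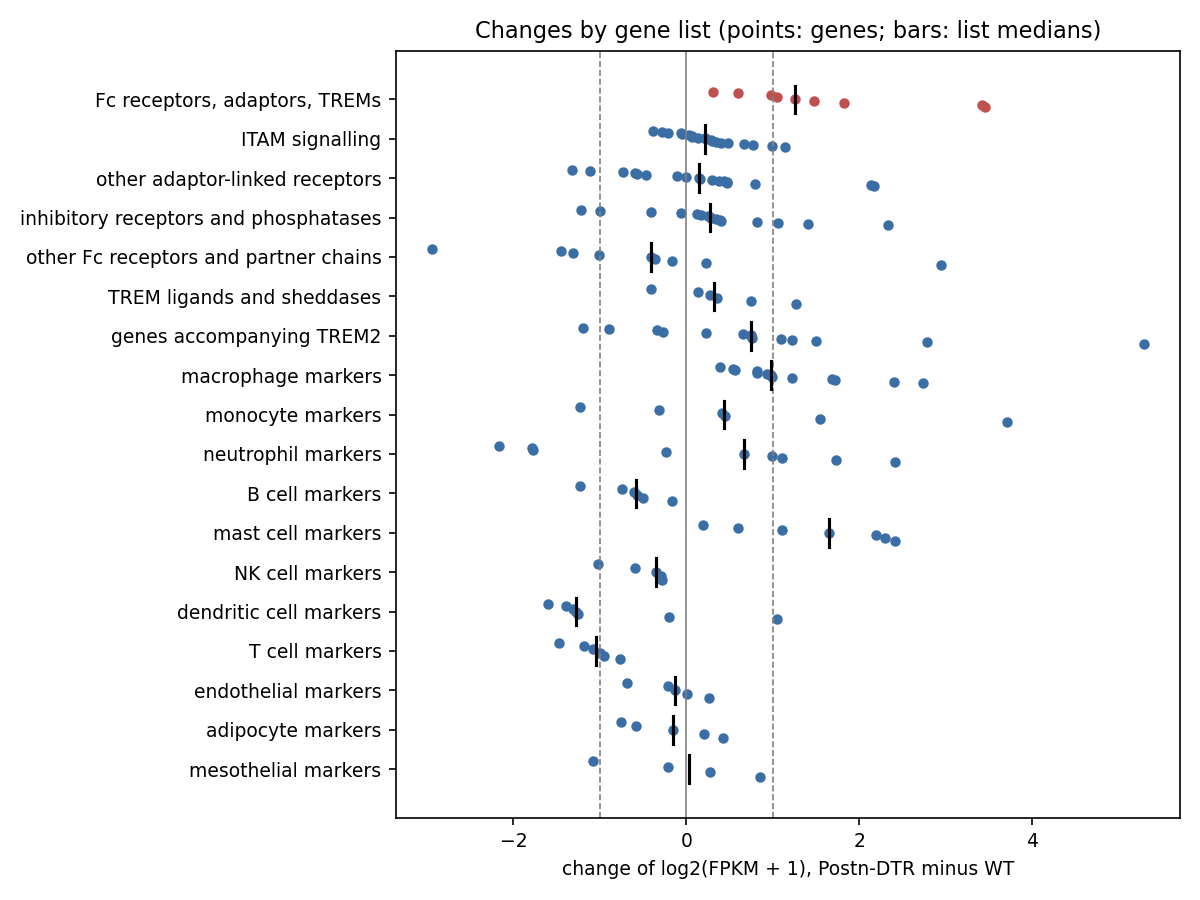
Difference of log2(FPKM + 1) between Postn-DTR and WT (Postn-DTR minus WT) of every compared gene (points) in the set of Fc receptors, adaptors and TREM receptors (red) and in each related list (blue), with list medians (bars) and dashed lines at 2-fold; 1 library per genotype. The red median is 1.25, against 0.22 for ITAM signalling, 0.98 for macrophage markers and 1.65 for mast cell markers.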

How the data were processed

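Whole omentum of WT and Postn-DTR mice was profiled 5 days after DT, with 1 library per genotype, grouped by the genotype label. Per the labels, total RNA came from a miRNeasy extraction and libraries from the TruSeq stranded mRNA kit. The submitters' processing notes name TopHat2 2.1.1, Bowtie2 2.2.8, SAMtools 0.1.18, Cuffdiff 2.2.1 and the build mm10. The authors deposited 1 FPKM value per gene symbol. The annotation and any pooling are not given in the sources used here.

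From these values log2(FPKM + 1) of WT was subtracted from that of Postn-DTR for every gene averaging 1 FPKM or more, and 2-fold was counted as higher or lower. The pseudocount understates changes of low genes, so ratios of single genes are of FPKM without it. The 9 genes and the 18 lists of related genes and markers were chosen with earlier results of these data known. All 9 genes, list genes past 2-fold, the 2 most abundant genes of a list, and the 3 genes nearest each adaptor could be named. Others are said to be chosen by position or after their values were seen.

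From low FPKM values and annotated transcript lengths, the fragment total behind FPKM was estimated as a measure of depth. It was about 23200000 in WT and 24400000 in Postn-DTR, and may differ from the number of fragments mapped. Of the low values, 71.1% and 71.5% lay within 0.05 of a whole read. Estimated reads of the 9 genes used the shortest transcript with a complete coding sequence, and those of other genes the median coding transcript. The 95% intervals are exact binomial and cover counting error only. GENCODE M21 and RefSeq (GRCm38.p6) gave positions and sequences, and 8 of the 9 genes had a promoter entry. Alternatives changed the pseudocount (0.1 and 5), the minimum (mean FPKM of 10, or none), the scaling (equal totals, median centring, 75th percentile) and the fold (1.5 and 3). Calculations used Python 3.11.15 with pandas 2.3.3, scipy 1.17.1 and Biopython 1.88, and were tested on simulated data. The libraries are too few for a test, and none was made.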

Additional observations from a re-analysis of the deposited data

How the results depend on the processing

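Fcgr3, Fcgr4, Trem1 and Trem2 stayed at least 2-fold higher in Postn-DTR under every pseudocount and scaling tried, and no member was 2-fold lower under any of the 9 alternatives. The number of members at least 2-fold higher was 6 as reported and was between 4 (equal totals) and 8 (1.5-fold), apart from the 3-fold line, which 3 passed. It was 5 at the 75th percentile, where Fcer1g came under 2-fold. Under the FPKM minimum of 10 it was 5 of 8, as Trem1 left the comparison, and the median change of the members was 1.15. With equal totals the median was 0.91. The direction of Fcgrt turned with equal totals, as did those of B2m, Pecam1, Prkcd, Rac2, Sirpa and Wt1 among the list genes. Pecam1 also turned with median centring, and Pecam1 and Prkcd at the 75th percentile. Over all genes, 509 were higher and 410 lower as reported. These counts were 305 and 819 with equal totals, 287 and 168 with a pseudocount of 5, and 642 and 643 when it was 0.1. Under the FPKM minimum of 10, where only 7207 genes were compared, they were 303 (4.20%) and 173 (2.40%), against 3.88% and 3.12% as reported. Equal totals also ended the higher call of Fgr, Pirb, Apoe, Ctsl, Plin2, Cd163, Csf3r, Hdc and Clec10a among the list genes. The same scaling added lower calls, among them those of Lpl and Cd22. No paired analysis was possible because there was 1 library per genotype. Without replicates or deposited counts, depth limits chiefly Trem1 in WT, with an estimated 7 reads.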
